A study of Mus musculus with 6 samples.

Results

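Signal transduction genes of mouse small-intestinal enteroids were compared between cultures that received IL-22 and untreated cultures. The set holds the genes that the authors' deposited table annotates with the term signal transduction, without those also annotated to immune system process, lipid metabolism or oxidation-reduction, and without some families and single genes that were left out by symbol. Of the 690 listed genes, 114 carried the term, 36 of these were left out for another term and 6 by symbol alone, and 72 remained. The choice used annotation and symbols, but the table lists only genes that the authors had selected as different, so each of the 72 differed at least 2-fold by construction.

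Enteroids are organoids grown from intestinal crypts. The IL-22 group was 2 wells from 1 mouse, which received recombinant mouse IL-22 for 24 hours, and the control group was 4 untreated wells from 2 mice. Mice of both groups were C57BL/6J without necrotizing enterocolitis, and every culture had spent 4 days in a differentiation medium that itself contained EGF, Noggin and R-spondin 1. The labels state a dose of 2 ng/ml, whereas the table's header names 100 ng. For age, one label states 6 weeks, and the protocol names adults of 8 weeks and neonates of 7 days. The labels call wells of 1 mouse technical replicates, so each p-value reflects how wells varied and not how treated animals vary. The labels do not say whether mouse 1 of each group was the same animal. With 1 mouse in the IL-22 group, a difference between mice and an effect of IL-22 cannot be told apart.

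IL-22 binds a receptor of epithelial cells that activates the kinases JAK1 and TYK2 and the transcription factor STAT3. Signal transduction more widely runs from ligands through surface receptors to small GTPases, kinases and transcription regulators. In the crypt, Wnt, EGF, BMP, Notch and Hippo signals set the balance between stem cells and differentiated cells. STAT proteins bind DNA at sites built around the letters TTCNNNGAA, where N is any base.

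This motif was searched for in the promoters of the set, because it is the core of the sites that STAT3 recognises. RefSeq promoters of build GRCm38.p6, running from 250 bases before to 50 bases after a start site, were held for 31 of the 40 members that were higher with IL-22 and for 26 of the 32 that were lower. The motif reads the same on both strands. It occurred in 4 of 35 promoters of higher members (11.4%) and in 1 of 38 promoters of lower members (2.63%). Over all listed genes the shares were 13.5% of 251 promoters of higher genes and 5.22% of 402 promoters of lower genes, and over all 32851 promoters of the table the share was 8.30%. The windows below are shown because they are the matches found in members, with the motif in capitals. A match is a run of letters, and binding was not measured.

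The higher members with a match were Casp12 (2 matches, at chr9:5345348-5345408 and chr9:5345414-5345474, plus strand), Pde11a (chr2:76339054-76339114, minus strand), Rasl11a (chr5:146845023-146845070, plus strand) and Syde1 (chr10:78591965-78592025, minus strand). The lower member was Sgk1 (chr10:21881935-21881995, plus strand).
Casp12, farther from the start site: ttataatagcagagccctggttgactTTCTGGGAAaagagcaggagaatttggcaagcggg
Casp12, nearer to the start site: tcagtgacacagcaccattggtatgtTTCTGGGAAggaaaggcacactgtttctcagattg
Pde11a: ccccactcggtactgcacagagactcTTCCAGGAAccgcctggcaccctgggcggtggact
Rasl11a: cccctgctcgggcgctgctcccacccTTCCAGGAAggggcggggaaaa
Syde1: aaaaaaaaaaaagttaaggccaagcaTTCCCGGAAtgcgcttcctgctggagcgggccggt
Sgk1: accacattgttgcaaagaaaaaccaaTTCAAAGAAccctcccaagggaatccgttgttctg

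Values are RPM, a gene's reads in a library scaled to 1000000 reads in total. The depths recovered from the table, in units of 1000000 reads, were 32.5 and 29.9 for the IL-22 libraries and 36.6, 35.2, 27.4 and 22.6 for the control libraries. Both IL-22 values follow from the deposited mean and standard error, and whole reads fixed all 4 control values for 65 of the 72 members. Control libraries could be told apart by depth but not by mouse. Where values were fixed, both IL-22 libraries lay beyond all 4 control libraries in 65 of 65 members, a separation that the authors' selection by p already brings with it. In bulk RNA, fewer cells of a type and less RNA per cell cannot be told apart.

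With IL-22, 40 of the 72 members stood higher (55.6%) and 32 stood lower (44.4%), whereas among all listed genes 267 were higher (38.7%) and 423 lower (61.3%). All 114 listed genes with the term, members included, had 66 higher (57.9%) and 48 lower (42.1%), so these shares were not particular to the set. No test of the set was made. The median deposited fold was 2.91 among higher members and 2.68 among lower members, beside 3.15 and 2.70 over all listed genes. The set held 12 higher and 7 lower members past 4-fold, against a background of 13.2% higher and 13.8% lower among listed genes. Levels were low in general, since 42 members (58.3%) stayed under 5 RPM even in the group where they were higher, against 40.6% of all listed genes, and 16 stayed under 1 RPM. At the other end, 5 members reached 100 RPM or more.

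The adjusted p of the authors' deposited table covers the listed genes alone. Recomputed from the means and standard errors, it ranged from 5.64e-05 to 0.0238 in the set, and the authors' deposited table prints the smallest of these, that of Rassf4, as 0. The unadjusted p of every listed gene was at most 0.0239. Adjusted over all 21951 protein-coding genes, with each gene outside the table at the largest possible p, 11 higher and 3 lower members stayed under 0.05. Of all listed genes, 13.6% passed as higher, 7.97% as lower and 21.6% in either direction. Such values, called all-gene adjusted p here, are upper bounds only if the authors tested no more than 21951 genes. How many they tested is not known. The verbs rose and fell are kept for the 14 members that passed, and they describe a difference between the groups. For the others, higher and lower compare the levels that the authors listed as different.

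**Figure D1:**
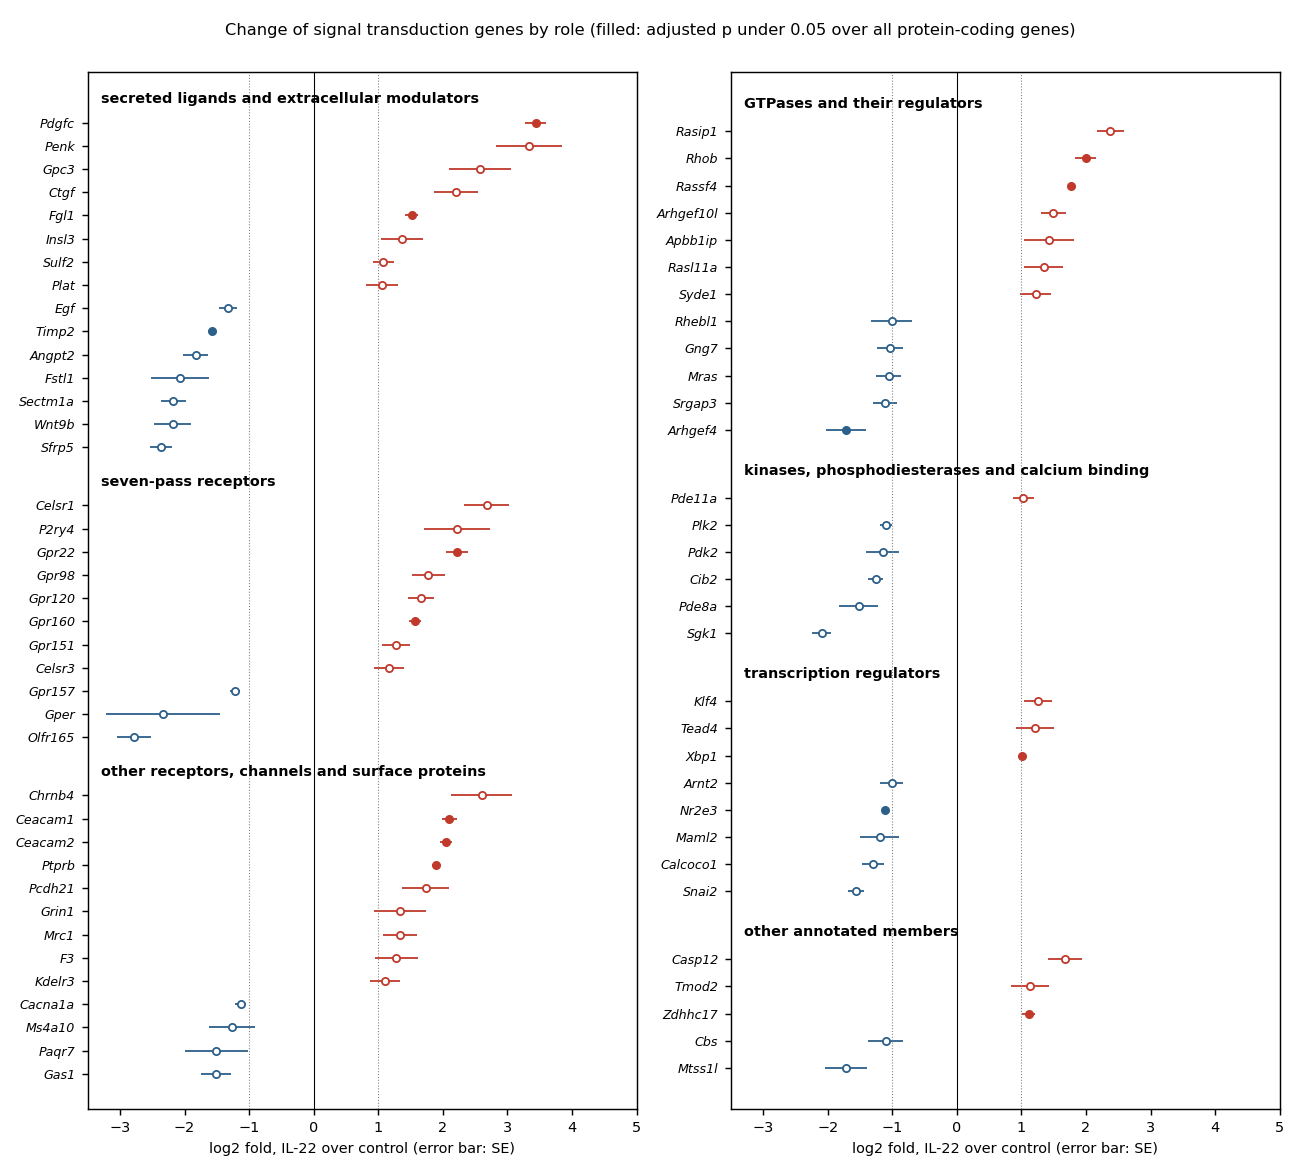
Log2 fold of IL-22 over control for 70 of the 72 genes, ordered by role, with the standard error propagated from the authors' standard errors. Filled points are the 11 higher and 3 lower genes with an all-gene adjusted p under 0.05, and dotted lines mark 2-fold. Seven-pass receptors lie mostly to the right (8 of 11), and kinases, phosphodiesterases and calcium binding proteins mostly to the left (5 of 6).

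Secreted ligands and extracellular modulators went both ways, with 8 higher and 7 lower, and the growth factor gene Pdgfc showed the largest increase of those that passed the stricter adjustment. Pdgfc (Entrez 54635, chromosome 3) encodes a ligand of the PDGF receptors. It had 3.41 and 3.20 RPM in the IL-22 libraries, against 0.365, 0.353, 0.273 and 0.227 RPM in the control libraries. The lower IL-22 library was 8.78 times the highest control library. Pdgfc rose 10.9-fold by the authors' deposited table (all-gene adjusted p = 0.00412), and its reads, 206 with IL-22 and 36 in controls, give a count ratio with a 95% counting interval of 7.82 to 16.4. Fgl1, a fibrinogen-like secreted protein known from the liver, had 5.42 and 5.14 RPM with IL-22, against 2.05, 1.99, 1.82 and 1.53 RPM in controls. It rose 2.86-fold by the authors' deposited table (all-gene adjusted p = 0.0197).

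Among the other higher ligands, Penk, the precursor of the enkephalin opioid peptides, had 1.05 and 0.569 RPM with IL-22, against 0.113, 0.0883, 0.0820 and 0.0365 RPM in controls. It rested on 51 reads with IL-22 and 9 in controls, and the lowest control value is that of 1 read given to a library with none. In absolute RPM the 2 IL-22 wells of Penk lay farther apart than the control wells, which stood at a much lower level. Gpc3, a heparan sulphate proteoglycan that binds growth factors, had 1.47 and 1.11 RPM with IL-22, against 0.397, 0.219, 0.164 and 0.0883 RPM in controls. Ctgf, a matrix-associated protein and a known target gene of the Hippo pathway, had 2.08 and 1.63 RPM with IL-22, against 0.620, 0.410, 0.353 and 0.227 RPM in controls. In both genes the control libraries spread widely and stayed below each IL-22 library. Of the exon bases of Ctgf, 23.2% lie in exons of other genes. Folds by the authors' deposited table were 10.1 for Penk, 5.95 for Gpc3 and 4.60 for Ctgf, with all-gene adjusted p of 0.325, 0.133 and 0.109.

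Sulf2, an enzyme that removes sulphate from extracellular heparan sulphate, had the highest RPM of this group, a value that is not scaled to gene length. It had 81.1 and 65.0 RPM in the IL-22 libraries, against 38.0, 33.8, 33.4 and 33.0 RPM in controls, and was 2.11-fold higher by the authors' deposited table. The IL-22 wells differed by more than the whole range of the controls, and without the deeper IL-22 library the fold was 1.88. Plat, tissue-type plasminogen activator, was 2.08-fold higher by the authors' deposited table and lost its call without one or the other IL-22 library (adjusted p of 0.0534 and 0.0793) and without the deepest or the third deepest control library (1.92-fold and 1.89-fold). Insl3, an insulin-like peptide known from the testis, was listed at 2.57-fold by the authors' deposited table. Of its exon bases, 64.8% lie in exons of Jak3, which was itself listed 4.03-fold higher by the authors' deposited table, so that reads of the shared part cannot be told apart. Of its 31-base words, 36.9% occur in no other gene. Without the deeper IL-22 library Insl3 had an adjusted p of 0.0587.

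The lower ligands included a Wnt ligand, a secreted Wnt inhibitor and EGF. Wnt9b had 0.185 and 0.134 RPM in the IL-22 libraries, against 0.971, 0.681, 0.656 and 0.584 RPM in controls. Sfrp5, a secreted antagonist of Wnt ligands, had 0.154 and 0.134 RPM with IL-22, against 0.883, 0.802, 0.711 and 0.567 RPM in controls. Both genes were near the limit of counting with IL-22, with 10 reads of Wnt9b and 9 reads of Sfrp5 in both wells together. Egf, a ligand of the EGF receptor, had 0.335 and 0.308 RPM with IL-22, against 0.985, 0.848, 0.751 and 0.653 RPM in controls. By the authors' deposited table, the fold of control over IL-22 was 4.54 for Wnt9b, 5.15 for Sfrp5 and 2.52 for Egf, and the all-gene adjusted p was 0.448, 0.215 and 0.393. Without one or the other IL-22 library Wnt9b and Egf had adjusted p of 0.0594 to 0.0735 over the listed genes and lost the call.

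Timp2, an inhibitor of matrix metalloproteinases, had 1.45 and 1.41 RPM in the IL-22 libraries, against 4.59, 4.37, 4.12 and 3.97 RPM in controls. It fell 2.99-fold by the authors' deposited table (all-gene adjusted p = 0.0345) and was the lower ligand modulator that passed. Angpt2, a ligand of the endothelial receptor TIE2, had 3.75 and 2.93 RPM with IL-22, against 12.9, 12.5, 11.9 and 10.1 RPM in controls. Fstl1, a secreted follistatin-like glycoprotein that binds BMP ligands, had 1.44 and 0.770 RPM with IL-22, against 5.11, 4.98, 4.79 and 3.71 RPM in controls. Angpt2 was 3.55-fold, Fstl1 4.21-fold and Sectm1a 4.52-fold lower with IL-22 by the authors' deposited table, with all-gene adjusted p of 0.0915, 0.153 and 0.190.

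**Figure D2:**
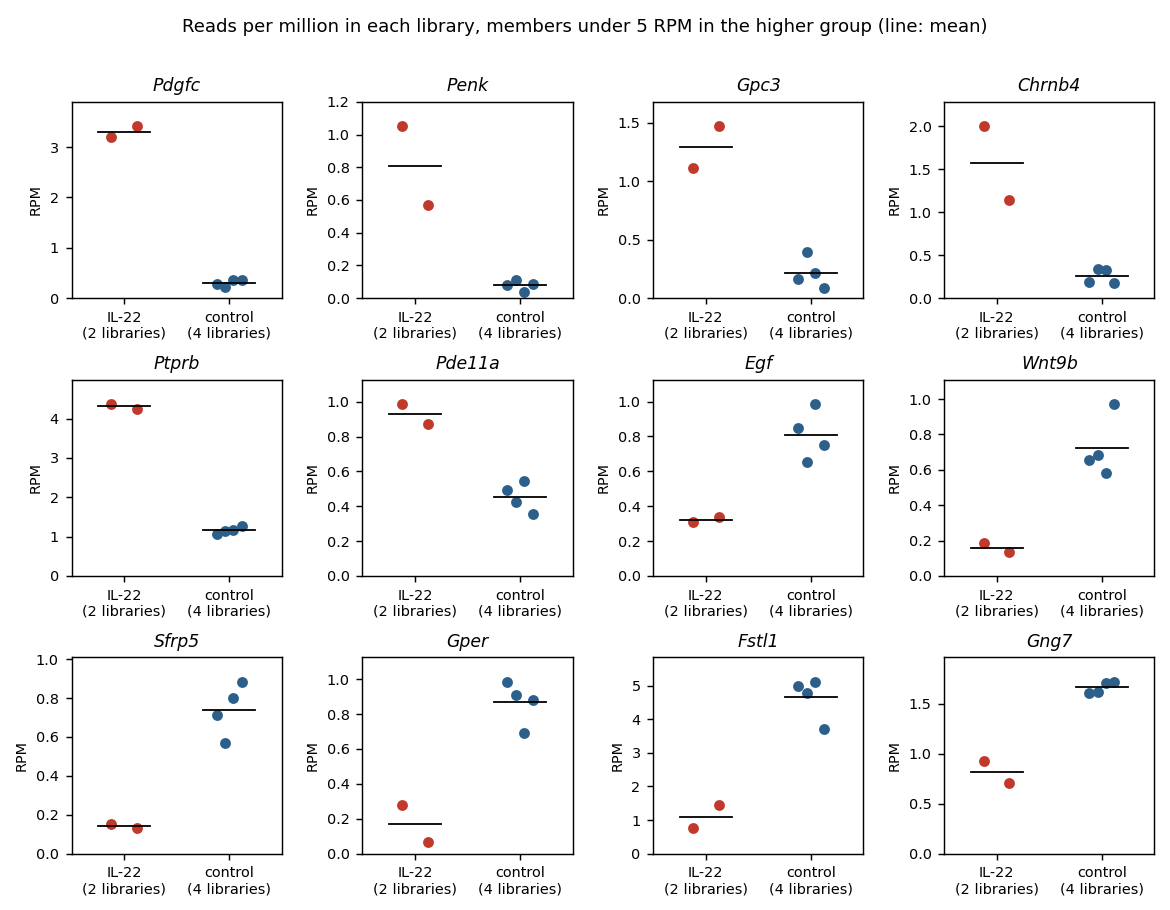
RPM of each library (points) and group mean (line) for 12 genes under 5 RPM in the group where they were higher, IL-22 on the left and control on the right of each panel. The lowest control point of Penk is the value of 1 read that the authors gave to an empty library. Penk and Chrnb4 show IL-22 wells that stand apart from each other, at 1.05 and 0.569 RPM and at 2.00 and 1.14 RPM.

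Seven-pass receptors as grouped here were mostly higher with IL-22, at 8 of 11 (72.7%, beside 38.7% of all listed genes), and 2 of the 8 passed the stricter adjustment. The grouping places Kdelr3, which was higher, and Paqr7, which was lower, with the other receptors, and the share depends on it. Gpr22 (Entrez 73010, chromosome 12), a G protein-coupled receptor known from heart and brain, had 24.2 and 19.7 RPM in the IL-22 libraries, against 5.28, 4.92, 4.73 and 3.89 RPM in controls. Gpr160 (Entrez 71862, chromosome 3), another receptor of this class, had 22.2 and 20.8 RPM with IL-22, against 8.23, 7.73, 6.51 and 6.49 RPM in controls. In both genes the IL-22 wells stood far above the highest control well. Gpr22 rose 4.66-fold and Gpr160 rose 2.97-fold by the authors' deposited table, with all-gene adjusted p of 0.0476 and 0.0189.

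Celsr1, an adhesion receptor of planar cell polarity, had the largest fold among the higher receptors. It had 17.9 and 11.2 RPM in the IL-22 libraries, against 2.63, 2.41, 2.03 and 2.01 RPM in controls. Its fold by the authors' deposited table was 6.41 with an all-gene adjusted p of 0.209, and the IL-22 wells lay farther apart than the controls. Its relative Celsr3, at 3.60 and 3.11 RPM with IL-22 and at 2.04, 1.64, 1.22 and 1.10 RPM in controls, was 2.24-fold higher by the authors' deposited table, and without the deeper IL-22 library its adjusted p was 0.0515. Gpr120, the receptor for long-chain fatty acids that RefSeq names Ffar4, had 12.9 and 10.4 RPM with IL-22, against 4.17, 4.02, 3.94 and 2.70 RPM in controls. Of those control values the lowest stood apart from the other 3.

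P2ry4, a receptor for extracellular nucleotides, was 4.67-fold higher by the authors' deposited table on 40 reads with IL-22 and 16 in controls. Gpr98, the large adhesion receptor Adgrv1 of sensory hair cells, was 3.42-fold and Gpr151 2.42-fold higher by the authors' deposited table, with all-gene adjusted p of 0.140 and 0.189. The 3 lower receptors of this group were Gper, Gpr157 and Olfr165. Gper, the membrane oestrogen receptor, had 0.277 and 0.0669 RPM with IL-22, against 0.984, 0.908, 0.883 and 0.693 RPM in controls. Its IL-22 wells differed by a large factor, and both together held 11 reads. Gpr157 had 2.65 and 2.48 RPM with IL-22, against 6.40, 6.10, 5.98 and 5.34 RPM in controls, with little spread in either group (all-gene adjusted p = 0.0669 from the authors' p). Olfr165, an odorant receptor gene, had 7 reads with IL-22 and 95 in controls and was 6.87-fold lower by the authors' deposited table. Olfr165 lost its call without one or the other IL-22 library and without the second deepest or shallowest control library, at adjusted p of 0.0569 to 0.0958.

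**Figure D3:**
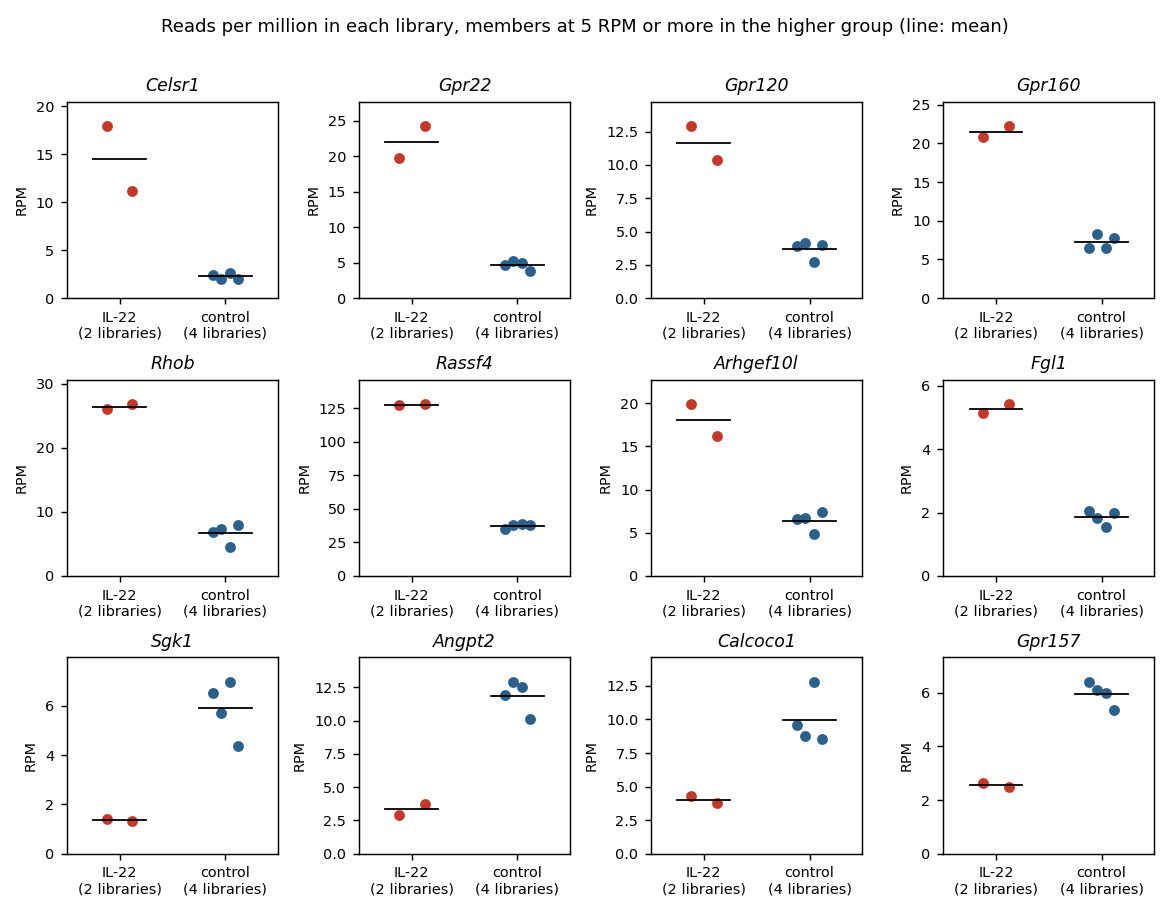
RPM of each library (points) and group mean (line) for 12 genes at 5 RPM or more in the group where they were higher, IL-22 on the left and control on the right of each panel. Rassf4 and Rhob show IL-22 wells that nearly coincide, at 128 and 127 RPM and at 26.8 and 26.0 RPM, whereas the wells of Celsr1 lie apart, at 17.9 and 11.2 RPM.

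Among other receptors, channels and surface proteins, 9 were higher and 4 lower, and the cell adhesion genes Ceacam1 and Ceacam2 rose together with the receptor phosphatase gene Ptprb. Ceacam1 (Entrez 26365, chromosome 7) encodes an immunoglobulin-type adhesion receptor of epithelia with an inhibitory signalling tail. It had 842 and 750 RPM in the IL-22 libraries, where the authors' deposited table gives a control mean of 185 ± 11.4 RPM (the authors' SEM). Its neighbour in the family, Ceacam2, had 210 and 199 RPM with IL-22, where the authors' deposited table gives a control mean of 49.4 ± 3.08 RPM (the authors' SEM). Ceacam1 rose 4.29-fold and Ceacam2 rose 4.13-fold by the authors' deposited table, with all-gene adjusted p of 0.0177 and 0.00855. Only 62.4% of the 31-base words of Ceacam1 and 42.9% of those of Ceacam2 occur in no other gene, so the counting may have passed reads between the 2 genes.

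Ptprb, a receptor tyrosine phosphatase known from endothelium, had 4.37 and 4.25 RPM in the IL-22 libraries, against 1.28, 1.17, 1.13 and 1.07 RPM in controls. It rose 3.71-fold by the authors' deposited table (all-gene adjusted p = 0.00291), with a close spread in both groups. Chrnb4, a subunit of nicotinic acetylcholine receptors, had 2.00 and 1.14 RPM with IL-22, against 0.340, 0.328, 0.191 and 0.177 RPM in controls (all-gene adjusted p = 0.343 from the authors' p). Pcdh21, the photoreceptor cadherin that RefSeq names Cdhr1, was 3.32-fold higher by the authors' deposited table. Mrc1, the mannose receptor known from macrophages, had 2.65 and 2.41 RPM with IL-22, against 1.41, 1.16, 0.839 and 0.601 RPM in controls. Since Ptprb and Mrc1 are known from other cell types, markers of such cells were looked up, and 0 of 18 haematopoietic markers and 0 of 21 mesenchymal, endothelial and neural markers were among the listed genes. Since the table lists 690 genes beside 21951 protein-coding genes of the annotation, few or none of such short lists would be listed in any case, and the counts say nothing about these markers. Their levels are not in the table, and their part in the result was not tested.

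Grin1, a subunit of NMDA receptors, had 6.06 and 5.36 RPM with IL-22, against 3.84, 2.53, 1.67 and 0.985 RPM in controls. The controls of Grin1 spread more than its IL-22 wells. It lost its call without one or the other IL-22 library and without the deepest or second deepest control library, at adjusted p of 0.0542 to 0.111. F3, tissue factor, had 45.2 and 28.7 RPM with IL-22, where the authors' deposited table gives a control mean of 15.2 ± 0.777 RPM (the authors' SEM), and without the shallower IL-22 library it was 1.89-fold higher. Kdelr3, which returns proteins to the endoplasmic reticulum, was 2.15-fold higher by the authors' deposited table, and 1.95-fold without the deeper IL-22 library and 1.97-fold without the third deepest control library.

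The lower surface proteins were Ms4a10, Cacna1a, Gas1 and Paqr7, and none passed the stricter adjustment. Ms4a10, a 4-pass membrane protein, had 21.9 and 13.8 RPM with IL-22, where the authors' deposited table gives a control mean of 42.8 ± 3.80 RPM (the authors' SEM). Cacna1a, a pore subunit of voltage-gated calcium channels, had 3.26 and 3.01 RPM with IL-22, against 7.40, 7.15, 6.92 and 6.07 RPM in controls (all-gene adjusted p = 0.0968 from the authors' p). Gas1, a co-receptor for Hedgehog ligands, had 0.832 and 0.669 RPM with IL-22, against 2.73, 2.19, 2.10 and 1.55 RPM in controls. In Cacna1a and Gas1 both IL-22 wells lay under every control well. Gas1 and Paqr7, a membrane progestin receptor, lost their calls without one or the other IL-22 library and without some control libraries, the second deepest and the third deepest for Gas1 and the deepest and shallowest for Paqr7, at adjusted p of 0.0528 to 0.118. Ms4a10 lost its call without one or the other IL-22 library, at 0.0502 and 0.0939.

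GTPases and their regulators split into 7 higher and 5 lower. Rassf4 (Entrez 213391, chromosome 6), a protein with a Ras association domain, had 128 and 127 RPM in the IL-22 libraries, against 38.4, 38.1, 38.1 and 34.6 RPM in controls. It rose 3.42-fold and had the smallest adjusted p of the set, by the authors' deposited table (all-gene adjusted p = 0.00179). Rhob (Entrez 11852, chromosome 12), a stress-inducible small GTPase, had 26.8 and 26.0 RPM with IL-22, against 7.90, 7.32, 6.83 and 4.45 RPM in controls. It rose 3.98-fold by the authors' deposited table (all-gene adjusted p = 0.0220). In both genes the IL-22 wells differed by less than the controls did.

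Arhgef10l, an exchange factor for small GTPases, had 19.9 and 16.2 RPM with IL-22, against 7.46, 6.70, 6.59 and 4.89 RPM in controls (all-gene adjusted p = 0.0989 from the authors' p). Rasip1, an effector of Ras-like GTPases in vessels, was 5.18-fold higher by the authors' deposited table (all-gene adjusted p = 0.0762). Of its exon bases, 42.9% lie in exons of other genes, with 20.4% in exons of Izumo1. Of its 31-base words, 62.0% occur in no other gene. Izumo1 was itself listed 3.29-fold higher by the authors' deposited table, so the reads of Rasip1 are uncertain. Apbb1ip, an effector of the GTPase Rap1, was 2.68-fold, the small GTPase Rasl11a 2.54-fold and the GTPase-activating protein Syde1 2.33-fold higher by the authors' deposited table. Rasl11a, whose promoter held the STAT motif shown above, had 1.08 and 0.937 RPM with IL-22, against 0.574, 0.482, 0.273 and 0.255 RPM in controls. Syde1, with the same motif, had 1.60 and 1.47 RPM with IL-22, against 0.948, 0.662, 0.596 and 0.437 RPM in controls. Without the deeper IL-22 library Apbb1ip, Rasl11a and Syde1 had adjusted p of 0.0834, 0.0607 and 0.0504, and Apbb1ip had 0.0605 without the shallower.

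Arhgef4, an exchange factor that APC activates, was the lower GTPase regulator that passed. It had 0.462 and 0.301 RPM in the IL-22 libraries, against 1.32, 1.31, 1.20 and 1.19 RPM in controls, and fell 3.30-fold by the authors' deposited table (all-gene adjusted p = 0.0452). The controls were tight, and 24 reads in all were counted with IL-22. Gng7, a gamma subunit of heterotrimeric G proteins, had 0.924 and 0.703 RPM with IL-22, against 1.72, 1.71, 1.62 and 1.61 RPM in controls (all-gene adjusted p = 0.0608 from the authors' p). The GTPase Mras was 2.08-fold, the GTPase-activating protein Srgap3 2.17-fold and Rhebl1, a relative of Rheb, 2.01-fold lower by the authors' deposited table. Near the 2-fold limit these calls were easily lost. Without the shallower IL-22 library Gng7 was 1.80-fold lower, without the deeper Mras was 1.85-fold and Srgap3 1.97-fold lower, and Srgap3 had an adjusted p of 0.0601 without the shallower. Rhebl1 had an adjusted p of 0.0578 without the deeper IL-22 library and 0.0570 without the deepest control library, and was 1.68-fold lower without the shallower IL-22 library and 1.84-fold lower without the shallowest control library.

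Kinases, phosphodiesterases and calcium binding proteins were lower in 5 of 6 cases (83.3%, beside 61.3% of all listed genes), and 0 of the 6 passed the stricter adjustment. Sgk1, a kinase that promotes sodium uptake in epithelia and whose promoter held the motif shown above, had 1.42 and 1.34 RPM in the IL-22 libraries, against 6.97, 6.53, 5.70 and 4.37 RPM in controls. Sgk1 was 4.28-fold lower by the authors' deposited table (all-gene adjusted p = 0.273), and the spread lay in the controls. Plk2, a stress-responsive polo-like kinase, had 8.10 and 7.23 RPM with IL-22, against 18.0, 16.4, 15.8 and 15.8 RPM in controls. Its all-gene adjusted p was 0.0572. Pdk2, which inhibits pyruvate dehydrogenase, had 10.5 and 7.46 RPM with IL-22, against 22.2, 21.1, 18.9 and 17.6 RPM in controls, and was 1.90-fold lower without the shallower IL-22 library.

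Of the enzymes that degrade cyclic nucleotides, Pde8a and Pde11a went opposite ways. Pde8a, specific for cyclic AMP, had 0.554 and 0.368 RPM with IL-22, against 1.53, 1.33, 1.28 and 1.15 RPM in controls. Pde11a, which degrades both cyclic AMP and cyclic GMP, had 0.986 and 0.870 RPM with IL-22, against 0.547, 0.492, 0.426 and 0.353 RPM in controls. Pde8a was 2.87-fold lower and Pde11a 2.04-fold higher by the authors' deposited table, with all-gene adjusted p of 0.168 and 0.167. Pde11a was 1.91-fold higher without the deeper IL-22 library, and 2.00-fold and 1.90-fold higher without the second deepest and shallowest control library, which placed it just under the 2-fold limit. Cib2, a calcium and integrin binding protein, was 2.39-fold lower by the authors' deposited table.

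Transcription regulators were 4 higher and 5 lower. Xbp1, the factor of the unfolded protein response that secretory cells need, had 521 and 501 RPM in the IL-22 libraries, where the authors' deposited table gives a control mean of 254 ± 7.26 RPM (the authors' SEM). It rose 2.01-fold by the authors' deposited table (all-gene adjusted p = 0.0142) and was 1.97-fold higher without the shallower IL-22 library. Klf4, a factor of goblet cell and epithelial differentiation, had 66.3 and 51.3 RPM with IL-22, against 29.9, 25.6, 22.3 and 21.0 RPM in controls (all-gene adjusted p = 0.188 from the authors' p).

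Tead4, a DNA-binding partner of YAP in the Hippo pathway, had 0.770 and 0.708 RPM with IL-22, against 0.454, 0.353, 0.328 and 0.146 RPM in controls. It lost its call without one or the other IL-22 library, at adjusted p of 0.0591 and 0.0793, and was 1.95-fold higher without the third deepest control library. Nr2e3, a nuclear receptor known from photoreceptors, had 4.05 and 3.88 RPM with IL-22, against 9.14, 8.97, 8.28 and 8.02 RPM in controls. It fell 2.17-fold by the authors' deposited table (all-gene adjusted p = 0.0487). Snai2, a repressor of epithelial genes, had 0.955 and 0.837 RPM with IL-22, against 2.87, 2.84, 2.66 and 2.21 RPM in controls (all-gene adjusted p = 0.120 from the authors' p). The groups of Snai2 lay well apart, at low levels. Maml2, a coactivator of Notch, was 2.29-fold, the coactivator Calcoco1 2.47-fold and Arnt2, a partner of basic helix-loop-helix factors, 2.02-fold lower by the authors' deposited table. Maml2 was 1.92-fold lower without the deeper and Arnt2 1.84-fold lower without the shallower IL-22 library, and Calcoco1 had adjusted p of 0.0703 without the deeper and 0.0859 without the shallower.

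The remaining members were 3 higher and 3 lower, and Zdhhc17, a palmitoyltransferase, was the one that passed the stricter adjustment. It had 50.7 and 45.0 RPM in the IL-22 libraries, against 24.0, 23.1, 21.5 and 20.1 RPM in controls, and rose 2.16-fold by the authors' deposited table (all-gene adjusted p = 0.0476). Casp12, an inflammatory-type caspase whose promoter held both motifs shown above, had 1.57 and 1.45 RPM with IL-22, against 0.653, 0.511, 0.486 and 0.246 RPM in controls (all-gene adjusted p = 0.112 from the authors' p). Mtss1l was 3.28-fold and Cbs, an enzyme of cysteine synthesis, 2.15-fold lower, and Tmod2, which caps actin filaments, was 2.20-fold higher by the authors' deposited table. Without the shallower IL-22 library Cbs was 1.82-fold lower and Tmod2 1.82-fold higher.

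**Figure D4:**
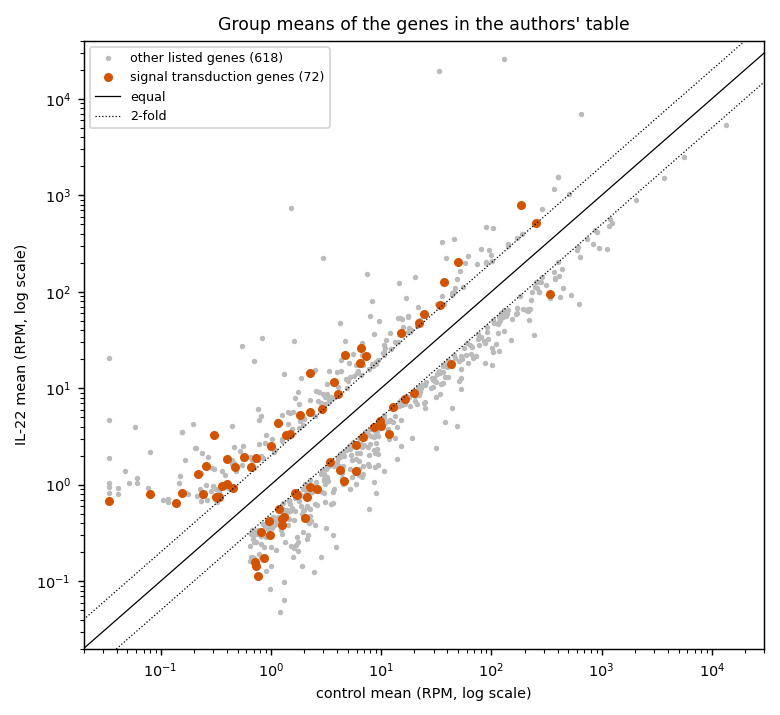
IL-22 mean against control mean in RPM, both on log scales, for the 72 signal transduction genes (orange) and the other 618 listed genes (grey), with lines of equality and of 2-fold change. The empty band between the dotted lines is the authors' 2-fold selection, and Ceacam1, at 796 RPM with IL-22 and 185 RPM in controls, lies farthest up among the 72 on this scale, which is not corrected for gene length.

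Pathway lists place the members among their partners, of which most were not listed and so could not be examined. The Wnt pathway list had 2 of 73 genes listed, Wnt9b and Sfrp5, both lower. From the list of EGF receptor ligands and receptors, 2 of 26 were listed and both were lower, Egf and Nrg4, a ligand of the receptor ERBB4. Nrg4 is outside the set for its annotation and was 4.45-fold lower by the authors' deposited table. In the TGF-beta and BMP list, 2 of 71 were listed and both were lower, Fstl1 and the protease Bmp1, which is outside the set. The combined Notch, Hedgehog and Hippo list had 3 of 72 listed, with Tead4 higher and Maml2 and Gas1 lower. None of these 9 genes passed the stricter adjustment.

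Other lists were mixed. Of 162 G protein-coupled receptors on a list, 10 were listed, with 7 higher and 3 lower, and 3 of the higher passed the stricter adjustment. Those outside the set were Gpr55 and Adra2a, higher, and Gpr116 and Cnr1, lower. The list is not complete. It holds 6 members of the set and leaves out Gpr22, which also rose. Of 205 genes of small GTPases and their regulators, 9 were listed, with 4 higher and 5 lower, of which 2 higher and 1 lower passed. Protein phosphatases had 3 of 57 listed, and 3 were higher and passed, Ptprb of the set with Ppef1 and Ptpn22. The phosphoinositide and calcium list had 3 of 122 listed, and 3 were lower, Sgk1 of the set with Pik3cg and Pik3ap1, and 0 passed. Nuclear receptors had 2 of 49 listed, Nr2e3 and the lipid sensor Ppara, and both fell. Adhesion and guidance receptors had 4 of 73 listed, Ceacam1 and Ceacam2, which were higher, with the guidance cues Slit2 and Ntn4, which were lower. Other receptor tyrosine kinases and their ligands had Pdgfc alone of 56, G protein subunits had Gng7 alone of 69, and cyclic nucleotide signalling had Pde11a and Pde8a of 63. Kinase cascades had 2 of 116 listed, Jak3 and Pak6, and both were higher without passing. Cytokine receptors and adaptors had 7 of 136 listed, with 6 higher and 1 lower, of which 2 higher passed. These 2 lists held 0 members of the set.

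Narrower annotation terms describe the make-up of the set, and since most of them lie under signal transduction, their frequency among members follows from the choice. The term receptor activity was attached to 24 of the 72 members (16 higher and 8 lower) and to 15 of the 618 other listed genes (11 higher and 4 lower). G protein-coupled receptor signalling was attached to 16 members (11 higher and 5 lower) and 10 other listed genes (4 higher and 6 lower). Small GTPase signalling was attached to 8 members (4 higher and 4 lower) and 3 others (1 higher and 2 lower). The Wnt receptor pathway was attached to 5 members (1 higher and 4 lower) and 0 others. Of 36 epithelial markers, 9 were listed (1 higher, 8 lower), whereas levels of the other 27 are not in the table. The higher one, Mmp7, was 5.82-fold higher by the authors' deposited table and passed the stricter adjustment (all-gene adjusted p = 0.0480 from the authors' p). Of the 8 lower ones, 0 passed. Being listed shows a difference between the groups and does not check the labelled tissue. The sucrase-isomaltase gene, Sis by its RefSeq name, was at 2494 RPM with IL-22 and 5581 RPM in controls, as the means of the authors' deposited table. These epithelial markers were listed as different beside the members, and their part in the result was not tested.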

How the data were processed

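RNA-seq was made from 6 wells, and values came from the authors' deposited table of listed genes. Per the submitters' processing notes BWA 0.5.9 and Picard 1.58 were used. The counting program, strand setting, annotation and build were not given in the sources used here. Deposited means are RPM, which was inferred from the values, with 1 read given to an empty library. The deposited fold or ratio is IL-22 over control. The deposited p-values were recomputed from means and SEMs as an equal-variance comparison with 4 degrees of freedom (largest difference 1.07e-06), and the deposited adjusted p-values are Benjamini-Hochberg values over 690 genes. The smallest exact permutation p is 0.0667 with wells taken as the units. Wells of 1 mouse are technical replicates, so this value does not refer to mice.

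Depth was recovered from the deposited mean raw read counts, means and SEMs. In 593 of 593 listed genes under 2000 mean reads both IL-22 values lay within 0.01 of a whole read, and 544 of 690 genes had 1 possible set of control reads. The recovery of control reads was tested on simulated rows, without the rows of highest count and with the depths taken as known. Recovery of the depths and of the IL-22 values was not simulated. The planned models on counts per library were not run, because reads were not fixed for all genes and the table holds selected genes only. Count ratios have 95% exact conditional binomial intervals that cover counting error only. Standard errors of log2 folds were propagated from the SEMs. Numpy 2.4.6, scipy 1.17.1 and pandas 2.3.3 were used. Sequences and names are from RefSeq (GRCm38.p6, 72 of 72 matched by Entrez identifier), and 31-base words and exon overlaps from GENCODE M21. Exons of other genes also covered 19.9% of the exon bases of Gas1, 18.0% of Rhebl1, 15.8% of Cib2, 14.3% of Penk and 13.5% of Grin1.

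The members, roles and lists were chosen with earlier results of these data known. A rule named 40 members: the 10 higher and 10 lower with the largest fold at 5 RPM or more, the 5 highest in level in each direction, up to 5 per list by p, and those under 3 control reads. The other members were added after their values were seen. Results of 2 members, counted in the totals, are not reported here.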

Additional observations from a re-analysis of the deposited data

Results flagged for a closer look

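Among the 65 members with fixed control values, 3 had 1 control library that stood apart from the other 3, by a gap to the nearest value that, as a share of the whole range, was above Dixon's critical value. In Rassf4 the lowest control, at 34.6 RPM, stood apart from the next at 38.1 RPM, with a gap of 0.926 of the range. In Gpr120 the lowest control, at 2.70 RPM, stood apart from the next at 3.94 RPM (0.841 of the range). In Sulf2 the highest control, at 38.0 RPM, stood apart from the next at 33.8 RPM (0.841 of the range). Chance flags about 1 in 20 groups. The libraries that stood apart were the deepest for Rassf4, the third deepest for Gpr120 and the shallowest for Sulf2. Groups of 2 IL-22 libraries could not be examined in this way.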

How the results depend on the processing

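No member reversed its direction, but most alternatives run could not reverse one. Thresholds, adjustments of p, read filters and an RPM added to both means leave the direction as it is. For the 65 members with fixed control values, leaving out 1 library could not reverse it either, because the groups did not overlap. The 40 higher and 32 lower members became 12 and 7 at a 4-fold threshold, 11 and 3 when p was adjusted over all protein-coding genes, 2 and 0 under Bonferroni adjustment, 20 and 10 with 1 RPM added to both means, 10 and 3 with 5 RPM added, and 22 and 15 with at least 100 mean reads in the higher group. Unequal variances left 18 higher members, and 29 lower ones. Leaving out 1 library left 29 to 39 higher and 19 to 31 lower members, with 21 lower when the deeper IL-22 library was left out and 19 when the shallower was. Of the 11 higher and 3 lower members that passed the stricter adjustment, 2 and 0 passed with Bonferroni adjustment, and 2 and 0 with unequal variances. The median fold of 2.91 among higher members was 1.96 with 1 RPM added and 1.35 with 5 RPM added, and that of 2.68 among lower members was 1.84 and 1.27. The added pseudocount itself shrinks the folds of low genes, and the cause of the other losses was not tested. The log2 scale lost Apbb1ip, Grin1 and Tead4.

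Of 72 members, 29 lost the call without one or the other IL-22 library, and of 65 with fixed control values 9 lost it without at least 1 control library, while 40 of 65 kept it in every such fit. A lone IL-22 library was assumed to vary as the controls do. Reg3b and Reg3g held 4.55% of reads with IL-22 and 0.0164% in controls. Leaving both out of the totals, an alternative chosen after seeing the data, shifted every gene by 0.067 on the log2 scale and left 40 higher and 28 lower members, with Rhebl1, Arnt2, Gng7 and Mras then under 2-fold. No paired analysis was possible because the control values carry no mouse or well. Fits of count models and other normalizations were not run for the reason given with the processing. Low depth limits members with few reads, and 13 members fell under 10 mean reads in a group.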
